A study of Drosophila melanogaster with 8 samples.

Results

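The genes described here build triglyceride, the storage fat of animals, or sit on the droplets in which it is kept. They are mdy, mino, Lpin, CG1942, CG3209, Fatp, Lsd-1, Lsd-2, Jabba and Seipin, found by these symbols in the deposited expression tables, and they make up 10 of the 17655 genes listed there. RNA was sequenced from Canton S flies, a wild-type laboratory strain of Drosophila melanogaster, collected as adults of 15 days after 7 days on a test diet and a final 2 h on standard food. Obesity was modelled by feeding: flies ate normal food (ND), high-fat food (HFD), or high-fat food to which a plant polyphenol, quercetin glucoside (HFD+QG) or epigallocatechin gallate (HFD+EGCG), had been added. Each of the 8 groups of diet and sex has 1 library, made from the body with wings and legs removed. How many flies went into a library, the doses of both polyphenols and the make-up of the diets are not given in the labels. Values are FPKM, which count fragments relative to transcript length and sequencing depth. The authors gave them per transcript in whole numbers, and they were summed here per gene. Where 4 values of a sex follow each other, their order is ND, HFD, HFD+QG, HFD+EGCG. Summed over all genes a library held 885956 to 1000513 FPKM.

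Triglyceride is made on a glycerol backbone. A glycerol-3-phosphate acyltransferase adds the first fatty acid, a further acyltransferase makes phosphatidate, a lipin removes the phosphate to leave diacylglycerol, and a diacylglycerol acyltransferase adds the last fatty acid. Phosphatidate and diacylglycerol are also the starting points of membrane phospholipids. In flies most triglyceride is held in the fat body, and the growing egg receives a large store of droplets for the embryo. Perilipins coat the droplets and set the access of lipases to them, and seipin acts where droplets bud from the endoplasmic reticulum.

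The abundance of these genes spanned a wide range. Lsd-2, a perilipin, had the highest level in each sex, with 242 ± 14.8 FPKM in males and 370 ± 28.0 FPKM in females (mean ± SD, n = 4 diets). CG1942 had the lowest, with 3.00 ± 2.45 FPKM in males and 2.00 ± 0.816 FPKM in females. The other perilipin, Lsd-1, ranked 2nd in males and 3rd in females, where Jabba stood 2nd. The enzymes mdy and CG1942 and the budding protein Seipin lay below 20 FPKM in every library, where rounding to whole numbers is coarse. Of the 45 transcripts listed for the 10 genes, 8 were at 0 in all 8 libraries.

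**Figure D1:**
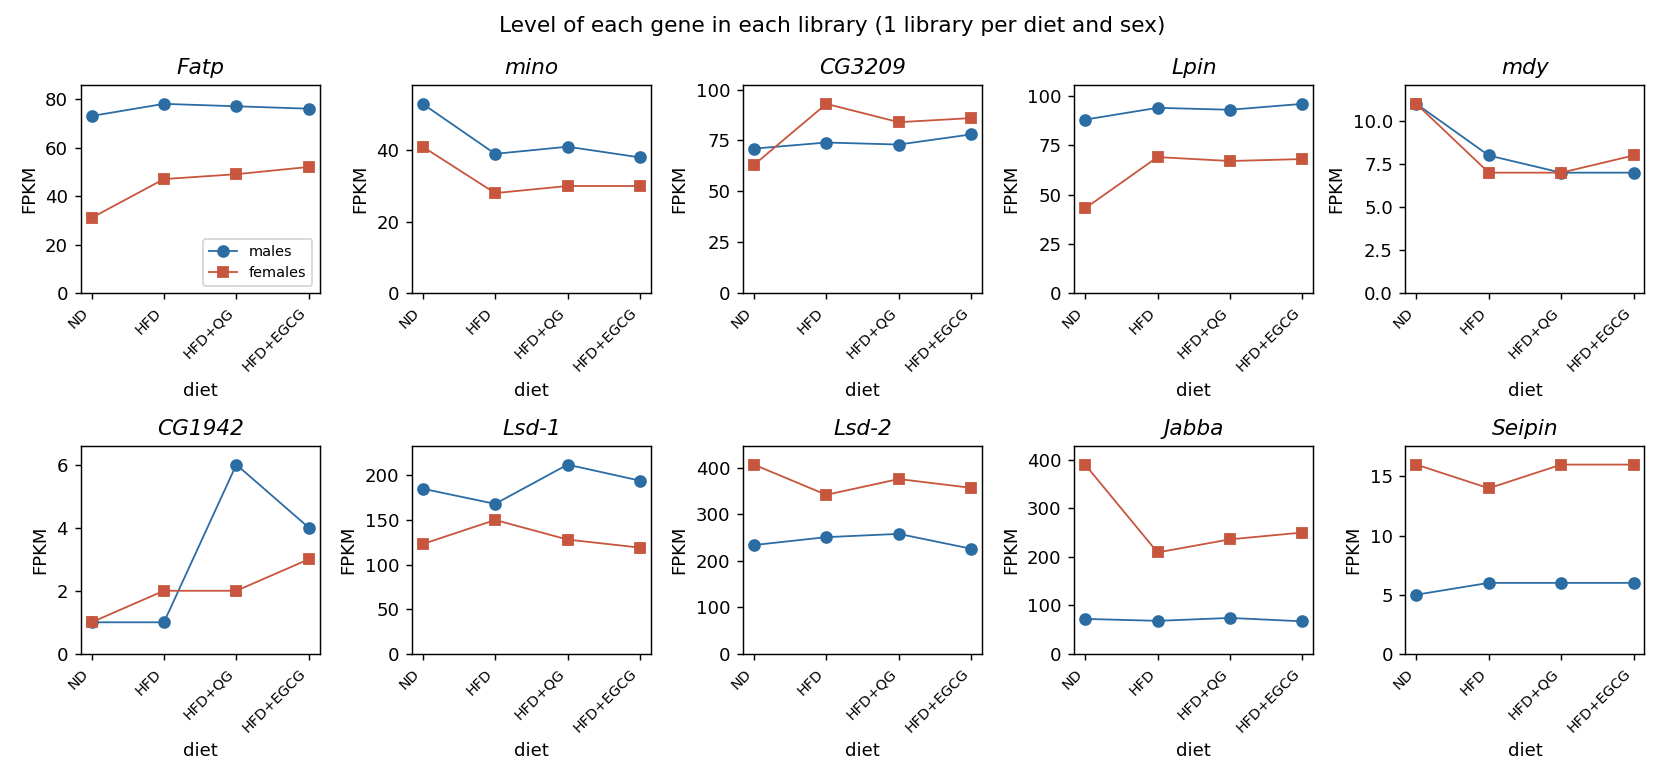
FPKM of each gene (vertical axes, all from 0) in the 4 diets (horizontal axes), with 1 point per library, males as blue circles and females as red squares. In females the ND point lies below the high-fat points for Lpin, CG3209 and Fatp and above them for mino, mdy and Jabba, whose female values run from 209 to 390 FPKM.

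The study asked first how fat-rich food acts. Females on the 3 high-fat diets had more RNA of Lpin, Fatp and CG3209 than the ND females, and less of Jabba, mdy and mino. In males mino was the only one of the 10 that passed, and it was lower. mdy differed from ND by the same amount in males as in females, without passing in males. The comparison set the 3 high-fat libraries of a sex, taken as samples of high-fat food, against its 1 ND library, with limma on log2(FPKM + 1) and Benjamini-Hochberg adjustment over all 9848 genes with at least 1 FPKM in a library of each sex. All log2 differences below are on that scale, which understates changes of low genes. The fit has 1 spread per gene for both sexes. The SEs of a gene are therefore the same in males and females and do not measure the spread within a sex. Leaving out a library of a sex can thus move a call in the other. The lone ND library of each sex is assumed to vary like the others, and in this design the library and the diet cannot be told apart.

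By this test 6 of the 10 genes passed an adjusted p of 0.05 in females, against 56.9% of all tested genes. In males 1 of 10 passed, against 8.27%. The difference between the sexes passed for 4 of 10, against 42.7%, being more positive in females for 3 (against 16.8% of all genes) and more negative for 1 (against 25.9%). These shares are close to the background, so the counts say nothing particular about fat synthesis. The median difference from ND over the 10 genes was 0.02 in females and 0.07 in males, beside -0.14 and 0.03 over all genes. Among all genes, 2229 were higher and 3371 lower in females. Centring each library on its median gene turned this split to 2955 higher and 1484 lower and moved the female median of all genes to 0.09. In males the split of 556 higher and 258 lower became 162 and 119 with centring, and 43 and 69 with libraries scaled to a common sum. For the difference between the sexes, 1655 higher and 2553 lower became 2218 and 1212 with centring.

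The tissue make-up of the female libraries moved with the same contrast. Markers of egg shell and yolk (18 genes) summed to 42169 FPKM on ND and to 6658, 13429 and 8417 FPKM on HFD, HFD+QG and HFD+EGCG, and 18 of 18 were down at least 2-fold from ND to HFD. In males the same markers summed to 11 to 14 FPKM, and 16 of 18 were listed at 0 in every library, the others being Yp3 and Cp18. Ovary germline markers (18 genes) summed to 3262 FPKM in ND females and 1366 to 1748 FPKM on the high-fat diets, and to 363 to 497 FPKM in males. Muscle markers (17 genes) went the other way, from 2740 FPKM to 5614 to 6271 FPKM in females and from 6401 FPKM to 7744 to 8890 FPKM in males. Markers of neurons and photoreceptors (15 genes) summed to 1738 FPKM in ND females and 4164 to 4655 FPKM in the others, and to 6280 FPKM and 8228 to 8462 FPKM in males.

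Fat body markers (10 genes, of which Yp1 is also an egg and yolk marker and apolpp and FASN1 are also on lists of lipid genes) summed to 8206 FPKM in ND females and 2887 to 3510 FPKM on the high-fat diets, and to 986 FPKM and 556 to 630 FPKM in males. Yp1 carried most of the female sum, and the 9 other fat body markers summed to 839 FPKM in ND females and 434 to 502 FPKM on the high-fat diets. That fall lay mainly in the markers fit (375 and then 161, 89 and 106 FPKM) and Lsp2 (123 and then 2, 2 and 0 FPKM). FASN1, pug and Cyp6a2 were above ND in each high-fat female, and apolpp and the gene to were below it. Over the 8 fat body markers tested, which do not include Yp1, the median difference from ND was -0.06 in females and -0.88 in males. Gut markers (15 genes) went from 17944 FPKM to 9834 to 11158 FPKM in females and from 11064 FPKM to 6506 to 9683 FPKM in males. Haemocyte markers (10 genes) lay at 106 to 139 FPKM in females and 50 to 73 FPKM in males. Testis markers (15 genes) stood at 1747 to 2554 FPKM in males, against 23 to 44 FPKM in females, with 13 of 15 at 0 there, and accessory gland markers (13 genes) at 59412 to 76427 FPKM in males and at most 2 FPKM in females. The sex labels therefore match these markers in all 8 libraries. The part of the egg, germline, muscle and neuron markers in the results below was not tested, and in whole-body RNA fewer cells of a type and less RNA per cell cannot be told apart.

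The 2 acyltransferases that open the pathway differed in direction. mino (3R:27925191-27933077) encodes a mitochondrial-type glycerol-3-phosphate acyltransferase that also serves the piRNA pathway of the germline. It was at 53 FPKM on ND and 39, 41 and 38 FPKM on HFD, HFD+QG and HFD+EGCG in males, and at 41 and 28, 30 and 30 FPKM in females. ND was the highest library of each sex, clear of the other 3. The fall passed the test in females, by 0.47 on the log2 scale (SE 0.06; limma, adjusted p 0.00437), and in males, by 0.42 (SE 0.06; limma, adjusted p 0.0302). With libraries centred on their median gene the female fall was 0.24 (limma, adjusted p 0.0296). In males the call was lost with libraries scaled to a common sum (limma, adjusted p 0.068) and when the HFD male, the HFD+EGCG male, the HFD+QG female or the HFD+EGCG female library was left out (limma, adjusted p 0.0727, 0.0553, 0.0515 and 0.0557). Egg shell and yolk markers are hardly present in males, at 11 to 14 FPKM, so they say nothing about the male fall. The male sums of fat body and gut markers were lower on the high-fat diets, and those of muscle and neuron markers higher, as given above. Their part in the fall of mino was not tested.

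CG3209 (2R:24068757-24073552; Gpat4 in the reference annotation) encodes a glycerol-3-phosphate acyltransferase of the endoplasmic reticulum type. Its levels were 71 FPKM on ND and 74, 73 and 78 FPKM on HFD, HFD+QG and HFD+EGCG in males, and 63 and then 93, 84 and 86 FPKM in females. ND was lowest in both sexes, by a narrow margin in males and a wide one in females. The rise in females was 0.47 (SE 0.07; limma, adjusted p 0.00601), and the male difference was 0.08 (95% interval -0.11 to 0.26). The sexes differed by 0.39 (SE 0.10; limma, adjusted p 0.0332), a call lost without the HFD male, HFD+QG male or HFD+EGCG female library (limma, adjusted p 0.0726, 0.0717 and 0.0643) with no filter on low values (limma, adjusted p 0.0562) and by the most abundant transcript alone (0.68; limma, adjusted p 0.0532). With centring the difference between the sexes was 0.62 (limma, adjusted p 0.0206).

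Within a library the balance of these acyltransferases therefore differed between diets. CG3209 had 1.34 times the FPKM of mino in ND males and 1.90, 1.78 and 2.05 times in HFD, HFD+QG and HFD+EGCG males. In females the ratio was 1.54 on ND and 3.32, 2.80 and 2.87 on the high-fat diets. ND had the lowest ratio of each sex. This follows from the levels above, where ND had the lowest CG3209 and the highest mino of each sex, and adds no separate result. These ratios compare FPKM within 1 library, so a common scaling factor drops out of them. They were not tested.

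Lpin (2R:8136986-8156654) encodes the fly lipin, the phosphatidate phosphatase that makes diacylglycerol and is needed for a normal fat body. It was at 88 FPKM on ND and 94, 93 and 96 FPKM on HFD, HFD+QG and HFD+EGCG in males, and at 43 and 69, 67 and 68 FPKM in females. The 3 high-fat females lay within 2 FPKM of each other and 24 FPKM or more above ND. Lpin rose by 0.65 in females (SE 0.03; limma, adjusted p 0.000405), and the male difference was 0.10 (SE 0.03; limma, adjusted p 0.138). The sexes differed by 0.55 (SE 0.05; limma, adjusted p 0.00266). Taking only the most abundant transcript of each gene lost that last call (0.38; limma, adjusted p 0.142). The gene kermit overlaps Lpin on the same strand and shares the start of the transcript Lpin-RM, so reads there may have been divided between them.

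Fatp (2L:10510672-10517218; Fatp1 in the reference annotation) encodes a fatty acid transport protein, a family that takes up fatty acids and activates them to acyl-CoA. In males it stood at 73 FPKM on ND and at 78, 77 and 76 FPKM on HFD, HFD+QG and HFD+EGCG. In females it stood at 31 FPKM on ND and at 47, 49 and 52 FPKM. No female library reached the male range. Fatp rose by 0.65 in females (SE 0.06; limma, adjusted p 0.00164), against a male difference of 0.08 (95% interval -0.08 to 0.23), and the sexes differed by 0.58 (SE 0.09; limma, adjusted p 0.00817).

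The last step of synthesis is held by mdy and CG1942. mdy (2L:16816660-16826964) encodes midway, the fly diacylglycerol acyltransferase 1, whose loss stops egg chambers from completing oogenesis. Both sexes had 11 FPKM on ND, and then 8, 7 and 7 FPKM in males and 7, 7 and 8 FPKM in females on HFD, HFD+QG and HFD+EGCG. The difference from ND was -0.53 in each sex (SE 0.11), and the difference between the sexes was 0 (95% interval -0.39 to 0.39). With size and spread alike, the calls of the sexes differ only through the adjustment. It is laxer in females, where 56.9% of all genes passed, than in males, where 8.27% did. The fall passed in females (limma, adjusted p 0.0131) and not in males (limma, adjusted p 0.0512). In females it lost its call once libraries were centred on their median gene (-0.30; limma, adjusted p 0.0688). The gene overlaps Cse1 and CG13280 on the other strand, as mino, Lsd-1, Jabba and Seipin also overlap antisense neighbours. The library kit was strand-specific, though the strand setting of the authors' counting is not given in the sources used here.

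CG1942 (2R:7712578-7714182; Dgat2 in the reference annotation) belongs to the other diacylglycerol acyltransferase family. It was listed at 1, 1, 6 and 4 FPKM in males, with 1, 2, 2 and 3 FPKM in females across the 4 diets. The difference from ND was 1.04 in males (SE 0.71) and 0.72 in females (SE 0.71), and neither passed (limma, adjusted p 0.414 and 0.422). The SE is shared by the sexes, while the high-fat libraries were at 3.67 ± 2.52 FPKM in males and 2.33 ± 0.577 FPKM in females (mean ± SD, n = 3). Reads may also be shared with its close relatives. Of these, CG1941 was at 17, 20, 17 and 19 FPKM in males, with 10, 19, 14 and 13 FPKM in females, and CG1946 at 4 to 6 FPKM in all 8 libraries.

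**Figure D2:**
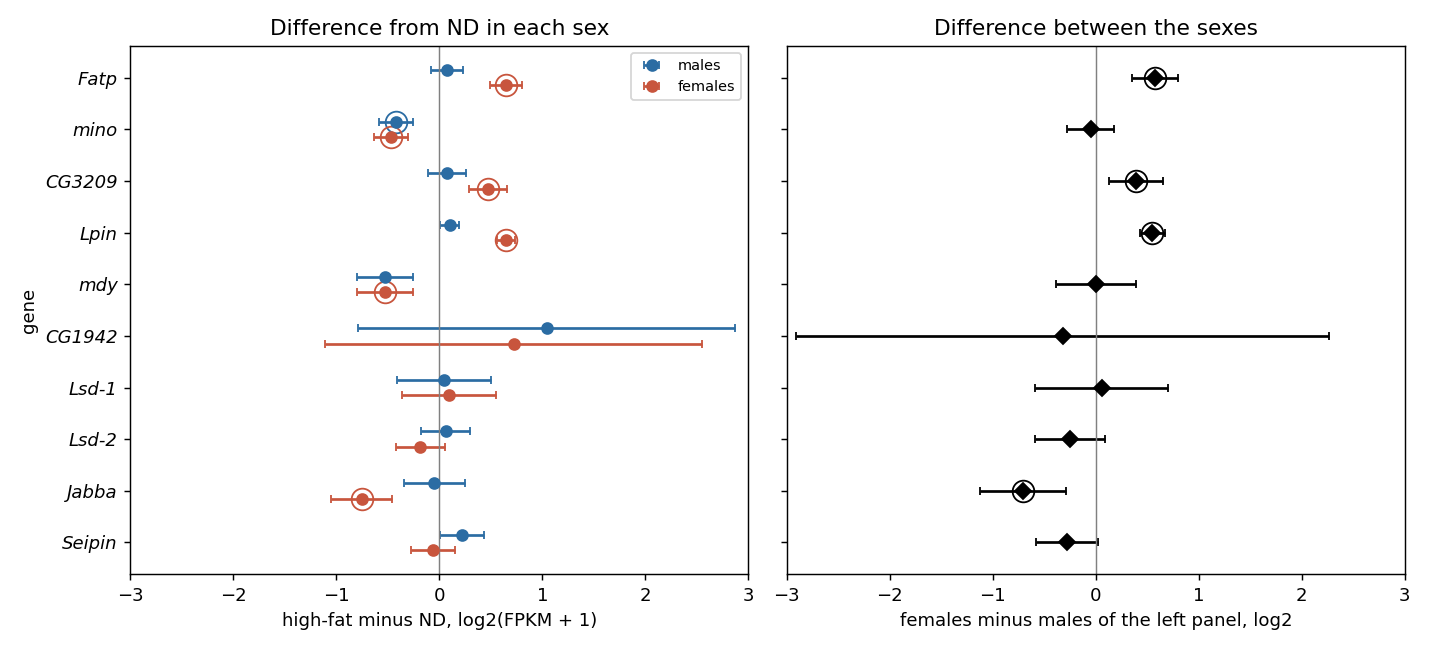
Left, difference between the 3 high-fat libraries and ND in log2(FPKM + 1) (horizontal axis) for each gene (vertical axis) in males (blue) and females (red), and right, the female difference minus the male one (black). Bars are 95% intervals of the limma fit and open circles mark an adjusted p under 0.05, which 6 genes reach in females, mino alone reaches in males, and Fatp, CG3209, Lpin and Jabba reach on the right.

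Among the droplet proteins Jabba had the largest difference from ND in females. Jabba (2R:18757074-18761082) binds histones to the droplets of the egg and early embryo. In males it was at 72 FPKM on ND and 68, 74 and 67 FPKM on HFD, HFD+QG and HFD+EGCG. In females it was at 390 FPKM on ND and at 209, 236 and 250 FPKM. The male libraries overlapped between ND and high-fat food and the female ones did not. Jabba fell by 0.75 in females (SE 0.11; limma, adjusted p 0.00597) and by 0.53 with libraries centred on their median gene (limma, adjusted p 0.00662). The male difference was -0.05 (95% interval -0.34 to 0.25), and the sexes differed by -0.70 (SE 0.16; limma, adjusted p 0.0243). Without the HFD male, HFD+QG male or HFD+QG female library that last call was lost (limma, adjusted p 0.0541, 0.0514 and 0.0537).

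The perilipins did not pass in either sex. Lsd-1 (3R:23763857-23766662), the perilipin that takes part in lipolysis driven by adipokinetic hormone, was at 185, 168, 212 and 194 FPKM in males, with 123, 150, 128 and 119 FPKM in females across the 4 diets. In each sex the ND value lay inside the high-fat range, and the differences were 0.04 in males (95% interval -0.41 to 0.50) and 0.10 in females (95% interval -0.36 to 0.55). Lsd-2 (X:15069127-15076220), the perilipin that shields stored fat and is also loaded into the egg, was at 234, 251, 258 and 226 FPKM in males, with 407, 342, 376 and 357 FPKM in females. ND was the highest female library, and the difference of -0.18 in females (95% interval -0.42 to 0.05) became 0.04 with centring. In males it was 0.06 (95% interval -0.17 to 0.30).

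Seipin (X:2619799-2622140) was at 5, 6, 6 and 6 FPKM in males, with 16, 14, 16 and 16 FPKM in females. The differences were 0.22 in males (SE 0.08; limma, adjusted p 0.157) and -0.06 in females (95% interval -0.27 to 0.15). They rest on a step of 1 FPKM in males and 2 FPKM at most in females. Without the HFD female library the male difference passed (limma, adjusted p 0.0172).

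Where ND lies among the libraries of a sex was also counted, without a test and from the same values. ND was below all 3 high-fat libraries in both sexes for Lpin, CG3209 and Fatp (3 of 10, against 11.9% of all genes) and above them in both sexes for mdy and mino (2 of 10, against 10.1%). Within females ND was below the others for these 3 and CG1942 (4 of 10, against 31.1%) and above them for mdy, mino, Lsd-2 and Jabba (4 of 10, against 49.9%). Within males it was below for Lpin, CG3209, Fatp and Seipin (4 of 10, against 26.8%) and above for mdy and mino (2 of 10, against 21.2%). No gene of the 10 was below in one sex and above in the other, as 25.4% of all genes were. With libraries scaled to a common sum, or by the most abundant transcript, only Lpin and Fatp were below in both sexes. With centring Seipin joined Lpin, CG3209 and Fatp there. By the most abundant transcript, mdy and Jabba were above in both sexes, in place of mdy and mino.

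A separate comparison set HFD without a polyphenol against ND, in an additive model of sex and diet. Its spread was taken from all 8 libraries. There none of the 9848 genes passed for HFD against ND (0.0%; limma, lowest adjusted p 0.29), and 1336 genes (13.6%) had an unadjusted p under 0.05. Among the 10 genes, mino (-0.48, SE 0.11) and mdy (-0.50, SE 0.16) had an unadjusted p under 0.05 (limma, adjusted p 0.292 and 0.331), and for each the HFD library lay below the ND one in both sexes. In this model a diet difference that is not alike in both sexes counts as error. With the ND male library left out, so that ND rests on the female library, 3839 genes passed, and with them mino, Lpin, CG3209, Fatp and Jabba (5 of 10).

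The transcripts behind these sums were estimated by the authors' software and are given as a description. They are named as in the reference annotation. Lsd-2 has 2 main forms, and Lsd-2-RA carries a coding exon of 51 bases (X:15073341-15073391) that Lsd-2-RB lacks. Lsd-2-RA was at 264 FPKM in ND females and at 163, 177 and 175 FPKM on HFD, HFD+QG and HFD+EGCG. Lsd-2-RB went the other way, from 131 FPKM to 167, 188 and 172 FPKM. The share of Lsd-2-RA in the gene was thus 64.9% in ND females and 47.1% to 49.0% in the others. In males it was 49.1% on ND and 43.8% to 44.6% on the high-fat diets, with Lsd-2-RA at 115, 110, 115 and 99 FPKM. The female sums of Lsd-2 (407, 342, 376 and 357 FPKM) thus combine lower estimates of Lsd-2-RA with higher ones of Lsd-2-RB on the high-fat diets. The shift between the forms was not tested. By the most abundant transcript alone, which was Lsd-2-RA, the female difference from ND was -0.62, beside -0.18 for the gene. That transcript was chosen by its mean over all 8 libraries. The ND female value of 264 FPKM, against 131 FPKM for Lsd-2-RB, put it ahead. The choice thus used the values compared, and this difference adds no separate result.

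Jabba also used different forms in the sexes. Jabba-RB, with a coding sequence of 320 codons, was at 187, 88, 105 and 99 FPKM in females and 13, 11, 12 and 11 FPKM in males across the 4 diets. Jabba-RG (438 codons) was at 104, 43, 49 and 40 FPKM in females and 9, 6, 9 and 3 FPKM in males. The longest form, Jabba-RC (560 codons), was the only one higher in males than in females in every diet, at 33, 32, 35 and 34 FPKM against 14, 18, 14 and 24 FPKM. It made up 45.8% to 50.7% of the gene in males and 3.59% to 9.6% in females. Jabba-RI was listed at 0 in all 4 male libraries and at 33, 27, 32 and 48 FPKM in females. The largest female differences from ND were thus in Jabba-RB and Jabba-RG, Jabba-RF and Jabba-RH were also below ND, and Jabba-RC was not.

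The female rise of CG3209 lay in 1 form. Gpat4-RC stood at 49 FPKM in ND females and 81, 72 and 72 FPKM on HFD, HFD+QG and HFD+EGCG, while Gpat4-RB stood at 14, 12, 12 and 14 FPKM. They carry alternative coding exons, of 237 bases in Gpat4-RC (2R:24070768-24071004) and of 234 bases in Gpat4-RB (2R:24071991-24072224). In males Gpat4-RC was at 53, 46, 48 and 57 FPKM and Gpat4-RB at 17, 27, 23 and 20 FPKM.

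For mino, the male fall lay mostly in mino-RA, at 28, 14, 18 and 18 FPKM. mino-RE, which has the same coding sequence and starts at another site, was at 7, 8, 8 and 7 FPKM. mino-RC was at 13, 14, 12 and 10 FPKM and mino-RB at 5, 3, 3 and 3 FPKM. In females mino-RA was nearly level, at 13, 12, 13 and 10 FPKM. The female fall was shared by mino-RE, at 15, 8, 10 and 10 FPKM, and mino-RC, at 12, 8, 7 and 10 FPKM. Tested by its most abundant transcript alone, mino did not pass in females (-0.15; limma, adjusted p 0.56) or in males (-0.72; limma, adjusted p 0.0975).

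For Lpin, the forms Lpin-RA and Lpin-RE were listed at 0 in ND females and at 13, 11 and 10 FPKM and 8, 6 and 4 FPKM on HFD, HFD+QG and HFD+EGCG. In males Lpin-RA was at 22, 8, 15 and 13 FPKM and Lpin-RE at 18, 24, 22 and 19 FPKM. Lpin-RL was at 10 FPKM in ND females and 15 to 17 FPKM in the others, while Lpin-RM stayed within 16 to 19 FPKM. Fatp and Lsd-1 each drew most of their RNA from 1 transcript, Fatp1-RE (76.9% to 83.9%) and Lsd-1-RD (83.3% to 92.7%).

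**Figure D3:**
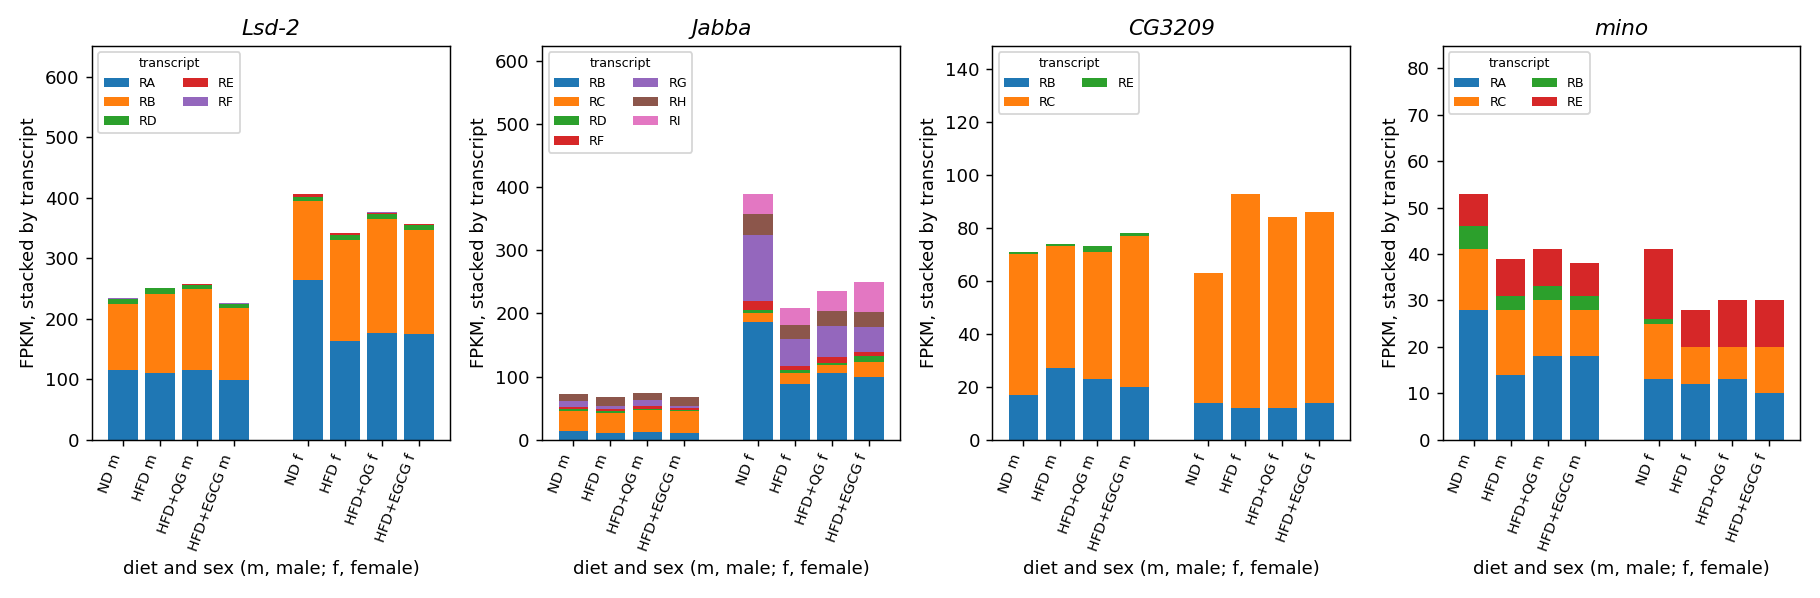
FPKM of the transcripts of Lsd-2, Jabba, CG3209 and mino (stacked bars from 0, 1 colour per transcript) in each library, males on the left and females on the right of each panel. Lsd-2-RA goes from 264 to 163 to 177 FPKM in females while Lsd-2-RB goes from 131 to 167 to 188 FPKM, and Jabba-RB takes 187 FPKM in ND females and 13 FPKM or less in males.

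Levels were also set side by side between the sexes, without a test, since the tables may have been scaled separately. All 4 female libraries lay above all 4 male ones for Lsd-2, Jabba and Seipin (3 of 10, against 39.0% of all genes). All 4 male libraries lay above the female ones for Lpin, Fatp and Lsd-1 (3 of 10, against 24.9%). The mean female level was 3.86 times the male one for Jabba, 2.70 times for Seipin and 1.53 times for Lsd-2. The mean male level was 1.70 times the female one for Fatp, 1.5 times for Lpin and 1.46 times for Lsd-1. The size of the difference varied with diet for Jabba, at 5.42 times on ND and 3.07 to 3.73 times on the high-fat diets. This was not particular to Jabba. For Fatp the female level was 0.425 times the male one on ND and 0.603 to 0.684 times on the high-fat diets. For Lpin it was 0.489 times and 0.708 to 0.734 times. For Seipin it was 3.2 times and 2.33 to 2.67 times, and for Lsd-2 1.74 times and 1.36 to 1.58 times. For Lsd-1 the ND value of 0.665 times lay inside the high-fat range of 0.604 to 0.893 times. For mdy the means were the same, at 8.25 ± 1.89 FPKM in each sex (SD, n = 4 diets).

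The last question was what the polyphenols added to the high-fat diet. In the additive model none of the 9848 genes passed for HFD+QG against HFD (0.0%; limma, lowest adjusted p 1), with 107 genes (1.09%) at an unadjusted p under 0.05. For HFD+EGCG against HFD none passed either (0.0%; limma, lowest adjusted p 0.222), with 102 genes (1.04%) at an unadjusted p under 0.05. None of the 10 genes had an unadjusted p under 0.05 in either comparison. The intervals leave room for sizeable differences. For Jabba the difference was 0.15 with QG (95% interval -0.41 to 0.70) and 0.12 with EGCG (95% interval -0.44 to 0.67), and for mino 0.08 (95% interval -0.20 to 0.37) and 0.03 (95% interval -0.25 to 0.31). The widest intervals were those of CG1942, listed at a few FPKM. Its differences were 0.90 with QG (95% interval -0.22 to 2.03) and 0.87 with EGCG (95% interval -0.26 to 2.00). Both comparisons share the HFD libraries.

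Within a sex, 2-fold differences between single libraries were counted without a test. From ND to HFD none of the 10 genes was 2-fold apart, against 6.05% of genes in males and 22.0% in females. CG1942 was the only one of the 10 that was 2-fold apart with a polyphenol, and in males alone. It was listed at 1 FPKM in the HFD male, at 6 FPKM with QG (1.81 on the log2 scale) and at 4 FPKM with EGCG (1.32). The share of male genes that were 2-fold apart was 4.52% with QG and 5.08% with EGCG. In females, where no gene of the 10 was, it was 5.3% and 5.0%. Between the polyphenols it was 4.31% in males and 4.77% in females, again with none of the 10. The steps of CG1942 rest on a few FPKM in 1 library each, and neither reached 2-fold with a pseudocount of 5. In females CG1942 was at 2, 2 and 3 FPKM on HFD, HFD+QG and HFD+EGCG. For Lsd-1 the sexes lay on opposite sides. Both supplemented male libraries (212 and 194 FPKM) were above the HFD male (168 FPKM), and both supplemented females (128 and 119 FPKM) were below the HFD female (150 FPKM). Across all tested genes 13.0% were split between the sexes in this way, in either direction.

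QG, a flavonol joined to glucose, and EGCG, a catechin ester of green tea, were compared with each other as well, with doses that the labels do not give. None of the 9848 genes passed (0.0%; limma, lowest adjusted p 0.222), with 83 genes (0.843%) at an unadjusted p under 0.05, and none of the 10 genes was among the latter. HFD+QG minus HFD+EGCG was 0.13 for Lsd-2 (95% interval -0.17 to 0.43), 0.12 for Lsd-1 (95% interval -0.31 to 0.54) and between -0.08 and 0.05 for the other 8 genes. The widest interval was that of CG1942 (-1.09 to 1.16), so these values do not show that the compounds act alike.

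**Figure D4:**
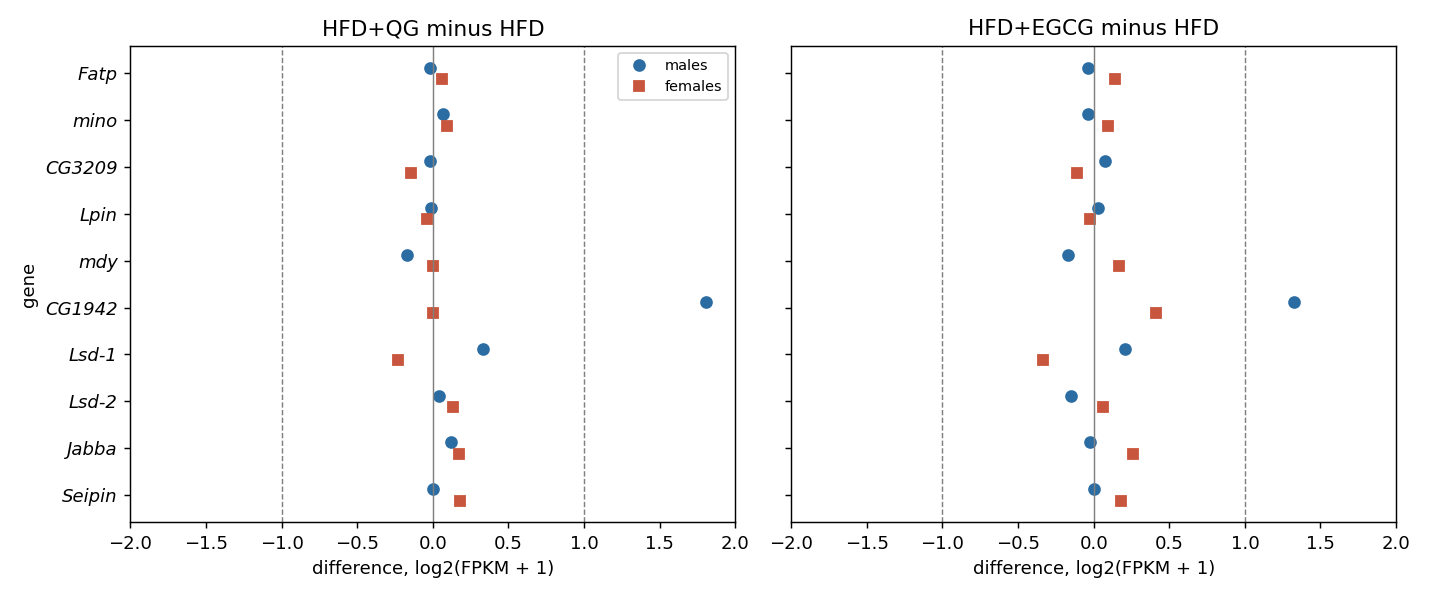
Difference from HFD in log2(FPKM + 1) (horizontal axes) for each gene (vertical axis) with QG (left) and EGCG (right), 1 library against 1, males as blue circles and females as red squares, with dashed lines at 2-fold. Only CG1942 in males passes the dashed lines, at 1.81 and 1.32, and Lsd-1 is right of 0 in males and left of it in females.

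Other genes of lipid metabolism, taken from lists, were set beside the 10 genes. Of 9 tested genes of glycerol phosphate and acyl-CoA metabolism, 3 rose and none fell in females, against 22.6% and 34.2% of all genes. They were Gpo-1, a mitochondrial glycerol-3-phosphate dehydrogenase (63 FPKM on ND and 108, 92 and 93 FPKM on HFD, HFD+QG and HFD+EGCG; 0.62, SE 0.11; limma, adjusted p 0.00848), the glycerol kinase Gk1 (36 and 44, 45 and 43 FPKM) and CG44252, which was listed at 0 on ND and at 1 FPKM in the others. In males Gpdh, the cytosolic glycerol-3-phosphate dehydrogenase, fell from 310 to 221, 230 and 210 FPKM (limma, adjusted p 0.0194), 1 of 9 against 2.62%.

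Of 6 other acyltransferases, 2 rose and 2 fell in females and none passed in males, near the shares of all genes (22.6% higher and 34.2% lower in females). CG4729 (Agpat3 in the reference), of the family that makes phosphatidate, rose from 96 to 141, 134 and 137 FPKM (0.51, SE 0.06; limma, adjusted p 0.00331). CG4753 (Agpat4) rose from 83 to 144, 123 and 130 FPKM, and fu12 (Agpat2) fell from 39 to 28, 29 and 28 FPKM. CG1946 fell too, by a step of 2 FPKM.

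Enzymes that use phosphatidate and diacylglycerol for phospholipids and signalling had 9 of 13 genes higher and 1 lower in females, against 22.6% and 34.2% of all genes, and 1 higher in males, against 5.65%. The split of all genes in females turns with centring, as given above. Cct1, an enzyme of the rate-limiting step of phosphatidylcholine synthesis, rose from 75 to 129, 123 and 129 FPKM in females (0.75, SE 0.05; limma, adjusted p 0.000697). Pis, phosphatidylinositol synthase, rose from 81 to 135, 115 and 123 FPKM, and CdsA, the CDP-diacylglycerol synthase, from 40 to 52, 53 and 51 FPKM. The others that rose were Cct2, Dgk, Dgkepsilon, laza, rdgA and wun. The lipid phosphate phosphatase gene wun2, which acts in germ cell migration, fell from 41 to 21, 24 and 24 FPKM and was at 3 FPKM in all 4 male libraries. In males Dgkepsilon, a diacylglycerol kinase, rose from 27 to 35, 33 and 33 FPKM (limma, adjusted p 0.0282). rdgA and laza act in photoreceptors, and the neuron and photoreceptor markers were higher in the same female libraries, as given above. The part of tissue make-up in the rise of these or the other genes of the list was not tested.

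Of 9 other droplet proteins, 3 rose and 3 fell in females, against 22.6% and 34.2% of all genes, and 1 rose and 1 fell in males, against 5.65% and 2.62%. CG10671 (Fitm in the reference), of the family that partitions fat into droplets, rose in both sexes, from 32 to 44 FPKM in each high-fat female (0.45, SE 0.03; limma, adjusted p 0.000905) and from 42 to 52, 53 and 54 FPKM in males (0.33, SE 0.03; limma, adjusted p 0.0142). CG2254 and Rab18 rose and CG9186, Rab32 and spas, the fly spastin, fell in females, spas from 36 to 20, 24 and 22 FPKM. In males bmm, the brummer triglyceride lipase, fell from 54 to 42, 42 and 40 FPKM (-0.38, SE 0.05; limma, adjusted p 0.0197). In females bmm was at 54 and 51, 53 and 53 FPKM, and the sexes differed by 0.33 (SE 0.06; limma, adjusted p 0.0156).

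Of 8 genes of fatty acid synthesis, 3 rose and none fell in females, against 22.6% and 34.2% of all genes, and 1 fell in males, against 2.62%. Desat1, the main acyl-CoA desaturase, moved in opposite directions, from 531 to 752, 716 and 725 FPKM in females (0.46, SE 0.06; limma, adjusted p 0.00434) and from 1374 to 946, 1036 and 979 FPKM in males (-0.48, SE 0.06; limma, adjusted p 0.0226). The sexes differed by 0.94 (SE 0.09; limma, adjusted p 0.00287). The fatty acid synthase genes FASN2 and FASN3 rose in females, FASN2 from 21 to 93, 100 and 95 FPKM (2.14, SE 0.14; limma, adjusted p 0.000649), and FASN1 was at 108 FPKM on ND and 153, 155 and 127 FPKM (limma, adjusted p 0.282). Men, the malic enzyme, was at 384, 253, 303 and 276 FPKM in males, with 161, 195, 180 and 180 FPKM in females, and passed for the difference between the sexes alone (0.67, SE 0.16; limma, adjusted p 0.025). The list median was 0.34 in females and -0.45 in males, beside -0.14 and 0.03 over all genes.

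Of 5 genes of lipoprotein assembly and uptake, 1 rose and 1 fell in females and none passed in males, with the same background in females. The receptor gene LpR1 rose from 19 to 32, 31 and 32 FPKM, and Mtp, which loads lipid onto lipoproteins, fell from 21 to 13, 14 and 13 FPKM. Of 9 regulators, 3 rose and 2 fell in females, against 22.6% and 34.2% of all genes. sug, a sugar-responsive transcription factor, rose from 40 to 118, 97 and 129 FPKM (1.49, SE 0.16; limma, adjusted p 0.00231), bigmax, the partner of Mondo, from 34 to 52, 48 and 53 FPKM, and SREBP, the main activator of lipogenic genes, from 59 to 71, 73 and 71 FPKM. Mondo and S1P fell. In males Torsin, which regulates Lipin activity in fat body cells, rose from 27 to 33, 35 and 36 FPKM (limma, adjusted p 0.0328), 1 of 9 against 5.65% of all genes.

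**Figure D5:**
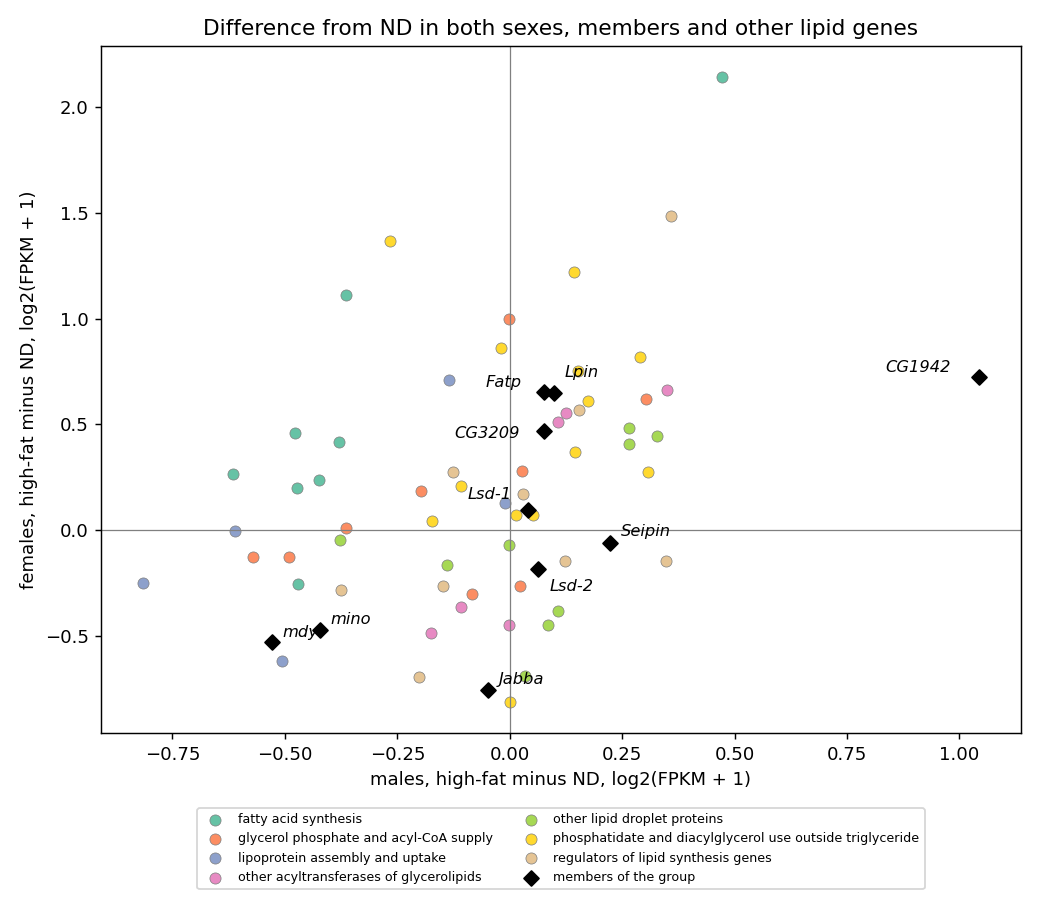
Difference between the 3 high-fat libraries and ND in males (horizontal axis) and females (vertical axis), in log2(FPKM + 1), for the 10 genes (black diamonds, named) and the genes of the 7 lists (coloured points). mdy and mino lie below 0 in both sexes, Lpin, Fatp and CG3209 lie near 0 in males and at 0.47 to 0.65 in females, and Jabba lies at -0.75 in females and near 0 in males.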

How the data were processed

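RNA of 8 libraries from bodies without wings or legs (4 diets in each of 2 sexes) was analysed. The authors deposited FPKM for each FlyBase transcript in whole numbers. Rounding leaves no read counts to recover, and the deposited values were treated as a score. The submitters' processing notes name CASAVA 1.8.2, TopHat2 2.1.1 and Cuffdiff 2.2.1. The genome build, the parameters and any scaling between libraries are not given in the sources used here. Depth is unknown, so no counting interval is given, and a listed 0 can stand for less than 0.5 FPKM per transcript. The locations of 10 of 10 genes in the tables equal those of BDGP6.54 (Ensembl release 115), whose transcript models and newer gene names were used.

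Transcripts (34475) were summed per FlyBase gene. Genes with at least 1 FPKM in a library of each sex (9848) were tested with limma 3.58.1 in R 4.3.3 on log2(FPKM + 1), with a trended prior and Benjamini-Hochberg adjustment at 0.05. An additive model of sex and diet had 3 residual degrees of freedom, and a model of sex, high-fat food and their interaction had 4. Counts without a test used 13304 genes described in males and 10254 in females. The scripts were checked on simulated data. Tables and plots were made in Python 3.11.15 with pandas 2.3.3, numpy 2.4.6 and matplotlib 3.10.9. Nothing in the labels says that libraries came from separate cultures, and the spread that p-values here measure may be technical.

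The 10 genes, the 7 lists of lipid genes and the 9 lists of tissue markers were chosen with earlier results of these data known. Of the lists' symbols, 26 were not found, mostly other spellings of listed genes. The text names all 10 genes, list genes that passed a limma comparison, and, for mdy, Lsd-1 and Lsd-2, the 3 genes most alike. FASN1, CG1941 and the overlapping genes kermit, Cse1 and CG13280 are named outside that rule, after their values were seen. So are the markers Yp1, Yp3, Cp18, apolpp, fit, Lsp2, pug, Cyp6a2 and to. Alternatives were a pseudocount of 5, no filter, a mean of at least 10 FPKM in each sex, scaling to a common sum, centring on the median gene, the most abundant transcript alone, no trend, and each library left out.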

Additional observations from a re-analysis of the deposited data

Results flagged for a closer look

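The difference between high-fat food and ND was not the same in the sexes for 4 of the 10 genes, by the interaction term of the limma fit over all genes. Females minus males, it was 0.55 for Lpin, 0.58 for Fatp, 0.39 for CG3209 and -0.70 for Jabba (log2). The share of all genes with such a difference was 42.7%. Egg shell and yolk markers summed to 42169 FPKM in ND females and 6658 to 13429 FPKM on high-fat food, against 11 to 14 FPKM in males, and their part in these differences was not tested.

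For a pair of genes both polyphenol libraries lay on one side of HFD in males and on the other in females, a difference that was not tested. Lsd-1 differed from HFD by a mean of 0.27 in males and -0.28 in females. Fatp differed by a mean of -0.028 in males and 0.101 in females, from male values of 76 to 78 FPKM, which are hardly apart. Of all tested genes, 13.0% were split in this way.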

How the results depend on the processing

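Of 989 values of single genes under alternative settings, 962 stayed on the same side of the threshold. The sign turned for 63, in 0 of which the value passed in either setting. Most of the 989 belong to comparisons in which the gene had not passed, so these counts say little about the calls. Under at least 1 setting a call was lost for mino in both sexes and mdy in females. The same held for Lpin, CG3209 and Jabba in the difference between the sexes. No paired analysis was possible because the labels give each group 1 library and no replicate numbers. For HFD against ND in both sexes, 8 genes passed with no filter in place of 0, and leaving out a library gave 0 to 3839 genes and 0 to 5 of the 10, the highest values coming without the ND male. With no filter 2 genes passed for HFD+QG against HFD and 2 for HFD+QG against HFD+EGCG. For high-fat food in males, 112 genes passed after scaling to a common sum and 281 after centring, in place of 814, and 445 to 816 with a library left out. Of the 10 genes, 2 passed in males with a pseudocount of 5 (mdy joining mino; limma, adjusted p 0.0489), 0 after scaling to a common sum, 0 by the most abundant transcript, and 0 to 2 with a library left out. With the stricter filter on low values, which tests 5628 genes, 3449 passed in females and 2665 for the difference between the sexes. The latter held for 2 to 5 of the 10 genes with a library left out, 2 without the HFD male or the HFD+QG male. At 2-fold, a pseudocount of 5 left 0 genes for QG and 0 for EGCG in males, and the most abundant transcript gave 1 for HFD against ND in females. Centring moved the median female difference of the 10 genes between HFD and ND from 0.05 to 0.33 and put ND below the other 3 female libraries for 7 genes in place of 4. The cause of these shifts was not tested. Rounding limits mdy, CG1942 and Seipin most.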

Other observations

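The genes whose values over the 8 libraries were most like those of mdy, Lsd-1 and Lsd-2 were sought among 5628 genes with a mean of at least 10 FPKM in each sex, after centring log2(FPKM + 1) within each sex. The likeness is a description over libraries that share diets and sexes, and for mdy the ND libraries stand apart from the rest. For mdy they were smp-30 (Pearson r 0.974), CG9896 (0.974) and Slip1 (0.974). smp-30, a gene of the regucalcin family, was at 252 FPKM on ND and 104, 99 and 100 FPKM on HFD, HFD+QG and HFD+EGCG in males, and at 61 and 26, 28 and 31 FPKM in females. For Lsd-2 they were Cdc7 (0.979), a kinase of DNA replication, Strip (0.96) and Trl (0.96), the GAGA factor. In the order ND, HFD, HFD+QG, HFD+EGCG, Cdc7 was at 48, 51, 54 and 47 FPKM in males, with 77, 61, 71 and 66 FPKM in females. For Lsd-1 they were Prestin (0.928), an anion transporter gene, CG5958 (0.892) and Gs1l (0.878). CG5958 was at 44, 45, 50 and 49 FPKM in males, with 68, 88, 74 and 67 FPKM in females.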
